A study of Arabidopsis thaliana with 4 samples.

Results

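A set of 288 genes had a higher FPKM with cytokinin both in roots grown without jasmonate and in roots grown with it. The genes were chosen by the values themselves. A gene had to reach 5 FPKM in at least one library and, after 0.1 was added to every FPKM, to be at least 2-fold higher with cytokinin than in control and at least 2-fold higher with JA/cytokinin than with JA. Among the 33565 genes listed, 16525 reached 5 FPKM, and the 288 genes were 1.74% of these. The study grew the wild type Col-0 of Arabidopsis thaliana for 7 days on solid half-strength MS medium and took RNA from whole roots under 4 conditions. These were cytokinin (50 nM BAP, a synthetic cytokinin), JA/cytokinin (50 nM BAP with 10 μM MeJA, the methyl ester of jasmonic acid), JA (10 μM MeJA) and control, with neither hormone. Each condition had 1 library, so no difference has a replicate check, no p-value is given, and the spread between plants is unknown. FPKM scales the fragments of a gene to its length and to the library's depth, so values of different genes can be set side by side. Folds and log2 ratios were computed after 0.1 was added, which understates the change of genes with low FPKM.

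Cytokinins bind histidine kinase receptors, which pass a phosphate through phosphotransfer proteins to type-B response regulators, the transcription factors of the pathway. These turn on type-A response regulators, which dampen the signal, and cytokinin oxidases, which break the hormone down, so that much of the early response is feedback. In roots cytokinin is known to limit the meristem and the formation of protoxylem. Jasmonate acts through degradation of the JAZ repressors, and is known for wound and defence responses and for shorter roots.

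The libraries held 98605532 reads with cytokinin, 98961424 in control, 115141812 with JA/cytokinin and 103814650 with JA. All 12 shoot markers examined were highest in control. Their summed FPKM was 9.16 with cytokinin against 2247 in control, and 4.48 with JA/cytokinin against 340 with JA. YAB1, YAB5, FAMA and MUTE, which act in leaf and stomatal development, were above 0 in control only, and the shoot sum was lowest in both cytokinin libraries, in which the 288 genes are high. The 7 root hair markers summed to 747 FPKM with cytokinin against 517 in control, and 413 with JA/cytokinin against 465 with JA. The 7 endodermis markers summed to 517 against 535 and to 194 against 162 in the same order. The 4 root cap markers summed to 60.87 against 48.97 and to 48.86 against 21.23. The 7 phloem markers summed to 38.60 against 36.60 and to 104.7 against 59.31. The 9 xylem markers summed to 73.14 against 126.9 and to 94.80 against 84.69. The 7 meristem markers had a median log2 ratio of -0.28 without JA and 0.28 with JA. None of the markers of shoot, root hair, root cap, endodermis, phloem, xylem or meristem was among the 288 genes. The part of tissue make-up in the values below was not tested. In whole roots, more transcript per cell and more cells of one type cannot be told apart.

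Without JA, 513 genes (3.10%) were at least 2-fold higher with cytokinin than in control, and with JA, 880 genes (5.33%) were at least 2-fold higher with JA/cytokinin than with JA. The 288 genes meet both conditions, 225 genes meet only the condition without JA and 592 only the condition with JA. As the rule requires both, these counts describe the choice. Within the set the fold without JA had a median of 2.56, with quartiles at 2.23 and 3.15. The fold with JA had a median of 3.99, with quartiles at 2.82 and 6.46. The fold was larger with JA than without in 235 of the 288 genes (81.6%) and in 51.5% of all genes that reached 5 FPKM. These too are the ratios the rule selected on, and more genes pass 2-fold with JA than without, so nothing is read from the gap. At least 4-fold was reached by 28 genes without JA, by 142 with JA and by 20 in both.

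**Figure D1:**
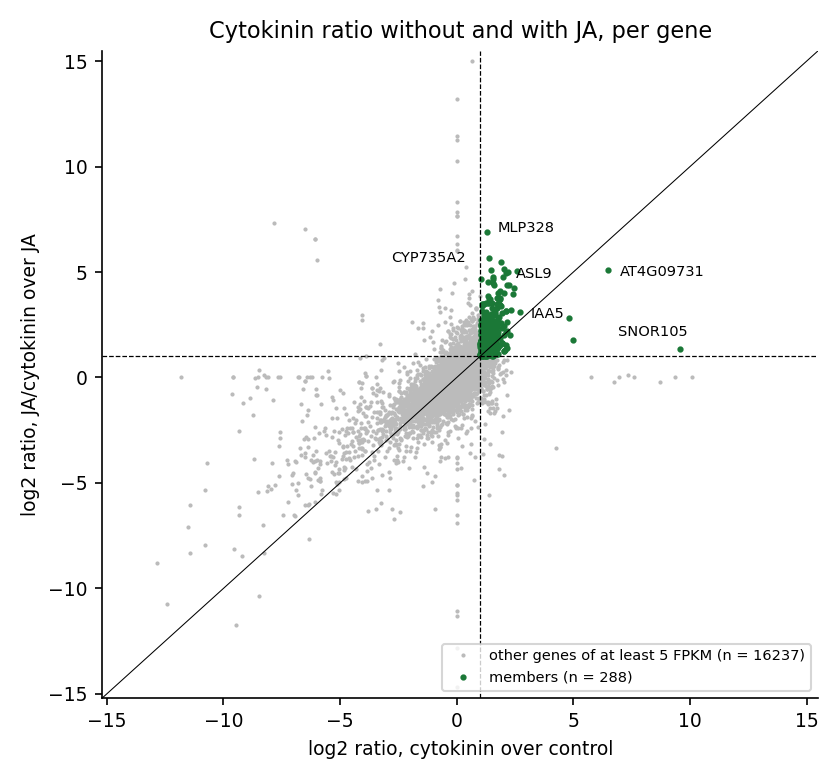
The log2 ratio of cytokinin to control (x axis) is plotted against the log2 ratio of JA/cytokinin to JA (y axis) for the 288 genes and for the other 16237 genes of at least 5 FPKM, both after adding 0.1, with 1 library per condition. The rule fills the upper right corner, and 235 of the 288 genes lie above the diagonal, where the ratio is larger with JA.

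The median FPKM of the set was 15.3 with cytokinin against 5.91 in control, and 15.9 with JA/cytokinin against 3.26 with JA. Over all genes that reached 5 FPKM it was 16.7 against 17.38 and, with JA, 17.41 against 17.7. Together the genes made up 2.29% of the FPKM total with cytokinin against 0.797% in control, and 3.11% with JA/cytokinin against 0.858% with JA. Among them, 55 reached 100 FPKM in some library and 77 (26.7%) stayed under 10 FPKM in every library, as 18.7% of all genes that reached 5 FPKM did. The highest was AT2G43535, a small knottin-type protein, with 1888 FPKM with cytokinin against 785 FPKM in control, and 5831 FPKM with JA/cytokinin against 2312 FPKM with JA. GRP9 (AT2G05440), a glycine-rich protein, had 857 FPKM with cytokinin against 402 FPKM in control, and 2402 FPKM with JA/cytokinin against 559.5 FPKM with JA. Both were highest with both hormones together, and the same held for the polyketide cyclase-like AT4G23670 (1331 with cytokinin, 462 in control, 2103 with JA/cytokinin and 270.5 FPKM with JA) and for PRXCB (AT3G49120, 269 with cytokinin, 132 in control, 789.9 with JA/cytokinin and 238 FPKM with JA), a cell wall peroxidase that forms reactive oxygen. CYP81F4 (AT4G37410) was highest with cytokinin alone.

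At the edge of the rule the values were close. The member nearest the threshold was EDS5 (AT4G39030), a MATE carrier needed for salicylic acid build-up, at 2.14-fold without JA and 2.00-fold with JA. Next came AT2G04500 at 2.06-fold and 2.00-fold and the ABC transporter ABCG41 (AT4G15215) at 2.01-fold and 3.14-fold. Just outside stood AT4G33560, at 2.00-fold (below 2 before rounding) without JA though 14.8-fold with JA, Hsp70-2 at 2.11-fold and 2.00-fold (likewise below 2) and AT1G75290 at 2.16-fold and 2.00-fold (likewise below 2). The smaller of the folds was under 2.2 for 80 of the 288 genes, and 118 genes outside the set had a smaller fold of at least 1.8.

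Several known feedback genes of the cytokinin pathway were in the set. Of the 10 type-A response regulators that reached 5 FPKM, ARR15 (AT1G74890) and RR16 (AT2G40670, also called ARR16) were in the set. 7 of the 10 were at least 2-fold higher with JA/cytokinin than with JA, and the list had a median log2 ratio of 0.64 without JA and 1.57 with JA, beside 0.04 and 0.02 over all genes that reached 5 FPKM. None of the 5 type-B regulators, 9 receptors and phosphotransfer proteins, 5 glucosyltransferases and carriers or 4 cytokinin response factors that reached 5 FPKM was in the set. Of the cytokinin oxidases CKX3 (AT5G56970), CKX5 (AT1G75450) and CKX6 (AT3G63440) were, out of 4, and of 7 genes of cytokinin synthesis CYP735A2 (AT1G67110) was. Among all genes that reached 5 FPKM 1.74% were in the set, and the member counts of the other lists and families stand beside that share too.

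ARR15 had 11.0 FPKM with cytokinin against 3.15 FPKM in control, and 3.41 FPKM with JA/cytokinin against 0.459 FPKM with JA (3.43-fold without JA and 6.28-fold with JA). RR16 had 7.86 FPKM with cytokinin against 3.70 FPKM in control, and 4.96 FPKM with JA/cytokinin against 0.381 FPKM with JA (2.09-fold without JA and 10.5-fold with JA). Both were lowest with JA, and with both hormones ARR15 was close to its control level. CYP735A2, the hydroxylase that turns isopentenyladenine-type cytokinins into trans-zeatin types, had 43.1 FPKM with cytokinin against 15.5 FPKM in control, and 40.7 FPKM with JA/cytokinin against 1.11 FPKM with JA. Its levels under the 2 conditions with cytokinin were alike, and the low value was that of JA alone (2.77-fold without JA and 33.7-fold with JA). ASL9 (AT1G16530), also called LBD3, a LOB-domain transcription factor known to respond to cytokinin, had the same pattern, with 22.2 FPKM with cytokinin against 5.14 FPKM in control, and 25.8 FPKM with JA/cytokinin against 0.746 FPKM with JA (4.26-fold without JA and 30.6-fold with JA).

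CKX5 had 16.1 FPKM with cytokinin against 7.03 FPKM in control, and 16.4 FPKM with JA/cytokinin against 5.97 FPKM with JA. CKX3 had 6.96 FPKM with cytokinin against 2.51 FPKM in control, and 6.06 FPKM with JA/cytokinin against 1.75 FPKM with JA. CKX6 had 5.38 FPKM with cytokinin against 2.45 FPKM in control, and 6.42 FPKM with JA/cytokinin against 2.65 FPKM with JA. The folds were 2.28-fold without JA and 2.72-fold with JA for CKX5, 2.71-fold without JA and 3.33-fold with JA for CKX3 and 2.15-fold without JA and 2.38-fold with JA for CKX6. None of the 3 differed by 2-fold between JA and control. CKX4, the fourth oxidase that reached 5 FPKM, was outside the set at 1.58-fold without JA and 8.32-fold with JA, and its log2 ratio of JA to control was -1.29. CKX5 and CKX6 overlap other annotated loci, and as strand was not stated, reads of those loci may count toward them. Adenine phosphoribosyltransferases convert adenine, and in the case of APT1 also cytokinin bases, to nucleotides. APT4 (AT4G12440, 22.5 with cytokinin, 7.63 in control, 14.8 with JA/cytokinin and 4.14 FPKM with JA) and APT5 (AT5G11160, 6.29 with cytokinin, 2.91 in control, 7.53 with JA/cytokinin and 1.11 FPKM with JA) were in the set, and APT1, APT2 and APT3 were not. The list of these 5 genes was added after values were seen.

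**Figure D2:**
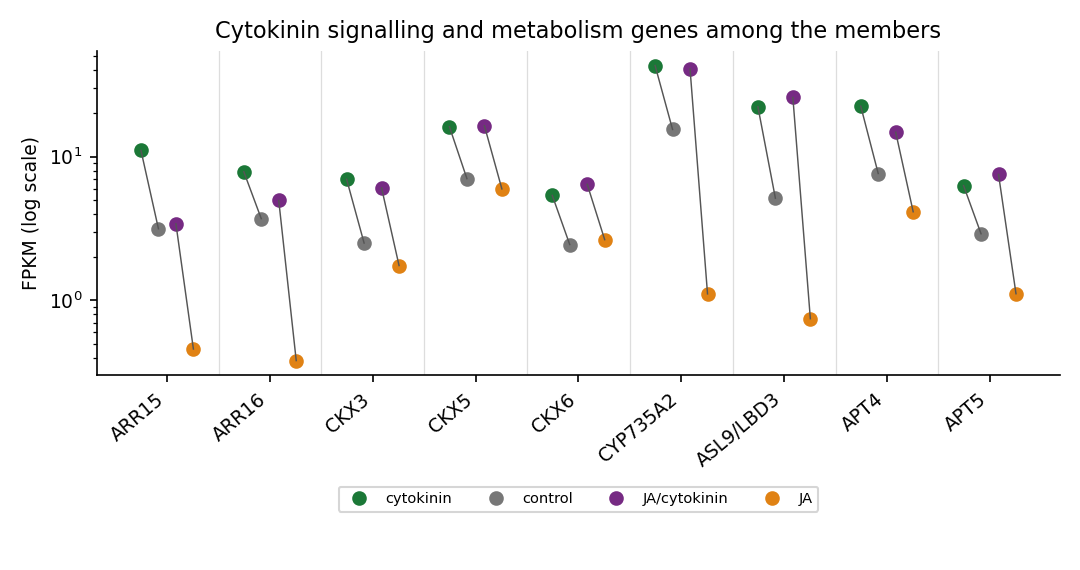
FPKM on a log axis of 9 genes of cytokinin response, breakdown and synthesis in the cytokinin, control, JA/cytokinin and JA libraries, 1 point per library. In each gene both cytokinin points lie above their partners without cytokinin, and for ASL9, CYP735A2, RR16 and ARR15 the JA point is far below the control point.

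The type-B regulators bind DNA at a short core, AGATT or AGATC, and the promoters of 5 feedback genes are shown with every such core in capitals on either strand (AATCT and GATCT are the reverse complements). Each window runs 5′ to 3′ along the gene, from 250 bases before the annotated start to 50 bases after it, in the TAIR10.1 assembly of RefSeq. The windows lie at chr1:28132976-28133275 on the minus strand for ARR15, chr2:16969423-16969722 on the plus strand for RR16, chr1:5652834-5653133 on the minus strand for ASL9, chr1:25065397-25065696 on the minus strand for CYP735A2 and chr1:28318326-28318625 on the minus strand for CKX5.
ARR15: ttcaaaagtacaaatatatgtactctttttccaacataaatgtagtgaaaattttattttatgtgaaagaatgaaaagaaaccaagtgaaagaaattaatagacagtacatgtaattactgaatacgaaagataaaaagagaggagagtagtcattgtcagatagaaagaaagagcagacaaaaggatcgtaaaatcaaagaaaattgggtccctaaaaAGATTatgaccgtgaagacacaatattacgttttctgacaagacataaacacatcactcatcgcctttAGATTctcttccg
RR16: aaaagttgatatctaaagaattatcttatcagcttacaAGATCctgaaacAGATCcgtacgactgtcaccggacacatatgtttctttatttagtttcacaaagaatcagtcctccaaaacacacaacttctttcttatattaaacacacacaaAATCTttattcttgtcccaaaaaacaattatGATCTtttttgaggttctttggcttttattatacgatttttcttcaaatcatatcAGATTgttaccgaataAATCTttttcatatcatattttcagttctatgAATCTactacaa
ASL9: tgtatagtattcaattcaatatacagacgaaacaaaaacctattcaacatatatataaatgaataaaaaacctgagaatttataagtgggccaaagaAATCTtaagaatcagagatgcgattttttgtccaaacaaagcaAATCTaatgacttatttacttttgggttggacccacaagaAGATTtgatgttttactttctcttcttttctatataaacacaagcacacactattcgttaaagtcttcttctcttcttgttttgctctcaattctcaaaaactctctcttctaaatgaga
CYP735A2: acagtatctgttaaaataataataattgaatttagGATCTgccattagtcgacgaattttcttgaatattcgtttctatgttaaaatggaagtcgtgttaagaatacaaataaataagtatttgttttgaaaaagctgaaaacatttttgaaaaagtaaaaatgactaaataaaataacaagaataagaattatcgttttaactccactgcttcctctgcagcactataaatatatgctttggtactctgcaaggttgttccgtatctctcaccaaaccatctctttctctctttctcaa
CKX5: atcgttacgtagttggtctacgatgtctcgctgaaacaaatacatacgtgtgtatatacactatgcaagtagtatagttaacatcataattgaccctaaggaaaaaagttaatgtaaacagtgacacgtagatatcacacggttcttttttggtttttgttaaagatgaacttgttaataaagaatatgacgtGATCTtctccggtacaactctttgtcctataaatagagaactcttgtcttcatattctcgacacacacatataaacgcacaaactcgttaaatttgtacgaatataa

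RR16 held 7 cores in its window, ASL9 3, ARR15 2, and CYP735A2 and CKX5 1 each. Such short cores are frequent everywhere. AGATT stood in 63.5% of the 285 windows of the set, 69.1% of those of all genes of at least 5 FPKM and 69.6% of all windows. AGATC stood in 36.1%, 30.9% and 32.3% in the same order. The longer form AGATTTT, which contains the first core, stood in 19.6%, 18.6% and 18.8%. The G-box core CACGTG stood in 10.2%, 8.93% and 7.51%. The TATA-box core, spelled TATAAA, was found in 62.8%, 51.9% and 52.2%, the widest gap of these 5 motifs in percentage points. Within the set, AGATT stood in 39.5% of the 43 windows of genes at least 2-fold higher with JA than in control and in 66.7% of the 117 windows of genes at least 2-fold lower. These shares describe letters in short windows and were not tested.

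By the mean of both log2 ratios MLP328 (AT2G01520), AT2G27535, AT1G77520, GASA5 (AT3G02885), AT4G11320 and ASL9 were among the first 10 genes. The other 4 were AT4G09731, SNOR105 (AT1G29071), ERF14 (AT1G04370) and AT2G18590, each listed at 0 or resting on 3 or fewer estimated fragments in a library. MLP328, a major latex protein-like gene, had 307 FPKM with cytokinin against 123 FPKM in control, and 237 FPKM with JA/cytokinin against 1.88 FPKM with JA. Its levels under the 2 cytokinin conditions and in control were of the same order, and JA alone was low. GASA5, a small cysteine-rich peptide of the gibberellin-regulated family, had 24.5 FPKM with cytokinin against 5.95 FPKM in control, and 124 FPKM with JA/cytokinin against 3.44 FPKM with JA, so that both hormones together gave the highest level (4.06-fold without JA and 35.1-fold with JA). AT2G27535, annotated as a ribosomal protein L10A family member, had 6.10 FPKM with cytokinin against 0.924 FPKM in control, and 53.2 FPKM with JA/cytokinin against 1.53 FPKM with JA, also highest with both. AT4G11320, a papain-type cysteine protease, had 278 FPKM with cytokinin against 106 FPKM in control, and 37.1 FPKM with JA/cytokinin against 0.631 FPKM with JA. The folds were 2.62-fold without JA and 50.9-fold with JA, though JA/cytokinin stayed below control. ICS2 (AT1G18870), an isochorismate synthase of the pathway to salicylic acid and phylloquinone, had 34.5 FPKM with cytokinin against 8.57 FPKM in control, and 7.81 FPKM with JA/cytokinin against 0.187 FPKM with JA. ICS2 was near its control level with both hormones, and it overlaps another locus.

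The set was uneven in its response to JA. Without cytokinin, 118 of the 288 genes (41.0%) were at least 2-fold lower with JA than in control, where 8.32% of all genes of at least 5 FPKM were, 126 lay within 2-fold, and 44 (15.3%) were at least 2-fold higher, where 7.39% of all were. With cytokinin present, 67 genes (23.3%) were at least 2-fold lower with JA/cytokinin than with cytokinin, beside 5.38% of all, and 75 (26.0%) were at least 2-fold higher, beside 7.27%. These ratios share their libraries with the rule, so they are given as a description, and how far the choice of genes sets these shares was not tested. The lowest of the 4 values was in JA for 189 genes and in control for 99. The highest was with cytokinin for 140 genes and with JA/cytokinin for 148. In 214 genes (74.3%) both libraries with cytokinin were above both without, as they were in 19.2% of all genes that reached 5 FPKM. The rule itself puts each cytokinin library above its partner, so it fixes where the lowest and highest values can fall. It also sets part of the 74.3%, and nothing is read from that gap.

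The 118 genes lower with JA had a median fold for cytokinin of 2.54 without JA and 6.004 with JA. Both folds were used by the rule, and JA, for whose low value these genes were split off, is the denominator of the second, so the gap is partly built in. With both hormones 74 of them were at or above the control level, and 26 were at least 2-fold above it. Beside cytokinin alone, 64 of the 118 were at least 2-fold lower with JA/cytokinin. Named by the lowest ratio of JA to control were AT4G11320, BNQ3 (AT3G47710), MLP328, AT5G11420 and AT1G77520. AT5G11420, a membrane protein of unknown function, had 47.0 FPKM with cytokinin against 15.9 FPKM in control, and 7.97 FPKM with JA/cytokinin against 0.265 FPKM with JA. AT1G77520, of the O-methyltransferase family, had 27.2 FPKM with cytokinin against 5.92 FPKM in control, and 4.71 FPKM with JA/cytokinin against 0.0481 FPKM with JA, the last value resting on 3.2 estimated fragments. In both genes JA/cytokinin lay between JA and control.

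The 44 genes higher with JA than in control must also exceed control with both hormones, since the rule puts JA/cytokinin above JA. Their median there was 11.5-fold, and 43 of them were at least 2-fold above cytokinin alone. VSP2 (AT5G24770), an acid phosphatase-like storage protein and a classical jasmonate marker, had 2.54 FPKM with cytokinin against 0.669 FPKM in control, and 214 FPKM with JA/cytokinin against 97.6 FPKM with JA. Its relative VSP1 (AT5G24780) had 40.8 FPKM with cytokinin against 11.0 FPKM in control, and 273 FPKM with JA/cytokinin against 26.2 FPKM with JA. JA moved VSP2 far more than cytokinin did, with log2 ratios of 6.99 for JA over control and 6.34 for JA/cytokinin over cytokinin. TH8 (AT1G69880), a type h thioredoxin, had 6.33 FPKM with cytokinin against 1.47 FPKM in control, and 525 FPKM with JA/cytokinin against 32.3 FPKM with JA, and was 16.2-fold higher with JA/cytokinin than with JA. AT2G47950 had 3.14 FPKM with cytokinin against 0.661 FPKM in control, and 22.4 FPKM with JA/cytokinin against 8.95 FPKM with JA. It overlaps another locus. AT3G28290 and AT3G28300, near-identical neighbours annotated as DUF677 membrane proteins, carry the same values (1.83 with cytokinin, 0.374 in control, 35.5 with JA/cytokinin and 14.7 FPKM with JA) and cannot be told apart. All 12 JAZ repressors reached 5 FPKM, and none was in the set.

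**Figure D3:**
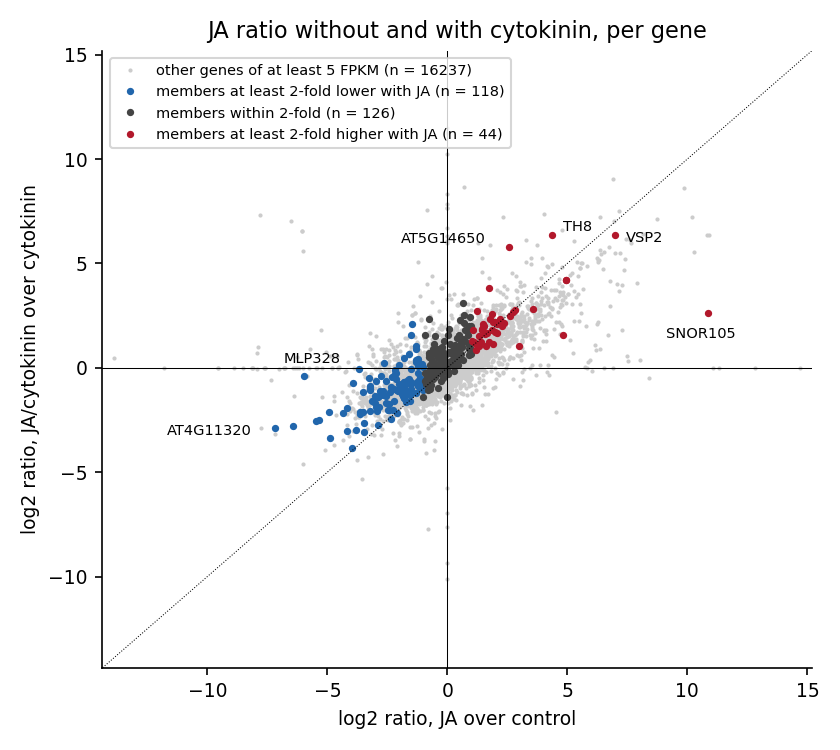
The log2 ratio of JA to control (x axis) is plotted against the log2 ratio of JA/cytokinin to cytokinin (y axis) for the 288 genes and for the other 16237 genes of at least 5 FPKM, after adding 0.1. Of the 288 genes 118 lie at or below -1 on the x axis and 44 at or above 1, and most lie above the diagonal. Lying above it is the same condition as a larger cytokinin ratio with JA than without. The rule selected on those ratios, so nothing is read from it.

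Suberin, the polyester of root endodermis and periderm, is made from fatty acids by hydroxylases, reductases and acyltransferases. Of 18 genes of suberin synthesis, export and regulation that reached 5 FPKM, 8 were in the set, beside 1.74% of all genes, and the list was drawn up after values were seen. CYP86A1 (AT5G58860), a fatty acid ω-hydroxylase, had 61.8 FPKM with cytokinin against 30.3 FPKM in control, and 13.1 FPKM with JA/cytokinin against 2.32 FPKM with JA. CYP86B1 (AT5G23190), which acts on longer chains, had 25.3 FPKM with cytokinin against 10.8 FPKM in control, and 5.79 FPKM with JA/cytokinin against 0.847 FPKM with JA. In both, cytokinin gave the highest value and JA the lowest, and JA/cytokinin stayed below control. All 8 genes were at least 2-fold lower with JA than in control, as were 41.0% of the set and 8.32% of all genes. Low values with JA were not confined to the 8, since the 18 genes had a median log2 ratio of JA to control of -2.17. For those of the 18 outside the set this ratio ran from -3.78 for ABCG6 to 1.21 for FAR1. JA/cytokinin was above control in 3 of the 8, FAR4 (AT3G44540), FAR5 (AT3G44550) and FACT (AT5G63560). FAR5, a reductase that makes fatty alcohols, had 33.6 FPKM with cytokinin against 11.7 FPKM in control, and 16.7 FPKM with JA/cytokinin against 2.43 FPKM with JA. Its neighbour FAR4 had 21.1 FPKM with cytokinin against 10.4 FPKM in control, and 12.9 FPKM with JA/cytokinin against 4.32 FPKM with JA. FACT, which joins caffeate to such alcohols, had 15.6 FPKM with cytokinin against 6.16 FPKM in control, and 20.5 FPKM with JA/cytokinin against 2.60 FPKM with JA, the one gene of the 8 that was highest with both hormones. The acyltransferase GPAT7 (AT5G06090), the acyl-CoA synthetase LACS2 (AT1G49430) and MYB53 (AT5G65230), a transcription factor known to turn on suberin genes, were 2.06-fold, 2.06-fold and 2.49-fold higher with cytokinin without JA and 3.28-fold, 2.40-fold and 6.94-fold higher with JA. The folds of the 8 ran between 2.02 and 2.87 without JA and between 2.40 and 7.64 with JA. FAR4 and MYB53 overlap other loci. The CASP genes, which mark the endodermis and its Casparian strip, were not in the set. The endodermis list had a median log2 ratio of 0.11 without JA and 0.36 with JA.

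In a group of 9 other lipid and barrier genes, put together by product name after values were seen, 6 were at least 2-fold lower with JA than in control, 2 lay within 2-fold and 1 was at least 2-fold higher, and JA/cytokinin was above control in 6. The shares lower and higher with JA were 41.0% and 15.3% in the whole set. They were 8.32% and 7.39% among all genes of at least 5 FPKM. CER1 (AT1G02205), an enzyme of wax alkane synthesis, had 11.5 FPKM with cytokinin against 4.40 FPKM in control, and 2.48 FPKM with JA/cytokinin against 0.123 FPKM with JA. The glycerol acyltransferase GPAT6 (AT2G38110, 14.7 with cytokinin, 6.10 in control, 6.77 with JA/cytokinin and 1.38 FPKM with JA) and the ABC transporter ABCG23 (AT5G19410, 13.3 with cytokinin, 6.17 in control, 3.005 with JA/cytokinin and 0.405 FPKM with JA) were also lowest with JA. So were the CASP-like proteins AT5G44550 (91.0 with cytokinin, 40.05 in control, 35.8 with JA/cytokinin and 4.81 FPKM with JA) and AT4G03540 (8.35 with cytokinin, 3.49 in control, 6.71 with JA/cytokinin and 0.696 FPKM with JA). Among the 4 lipid transfer proteins, AT3G58550 had 36.6 FPKM with cytokinin against 12.7 FPKM in control, and 104 FPKM with JA/cytokinin against 8.86 FPKM with JA, highest with both hormones. AT3G58550 overlaps another locus. AT4G22470 (2.53 with cytokinin, 0.802 in control, 6.04 with JA/cytokinin and 2.88 FPKM with JA) was the gene higher with JA, and it also overlaps another locus.

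**Figure D4:**
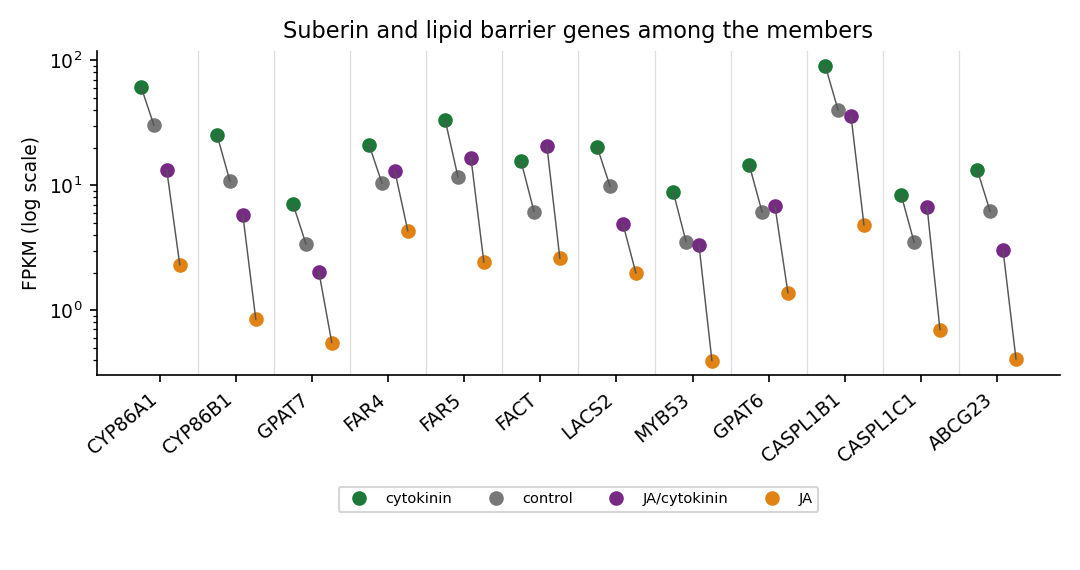
FPKM on a log axis of the 8 suberin genes, and of GPAT6, AT5G44550 (labelled CASPL1B1), AT4G03540 (labelled CASPL1C1) and ABCG23. The libraries are cytokinin, control, JA/cytokinin and JA, with 1 point per library. The JA point is the lowest in every gene shown. The JA/cytokinin point is above control in FAR4, FAR5, FACT, GPAT6 and AT4G03540 only.

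Cell wall genes made up another group. Expansins loosen the wall, and 3 of the 18 that reached 5 FPKM were in the set (16.7%). EXPB3 (AT4G28250) had 75.03 FPKM with cytokinin against 28.0 FPKM in control, and 140.3 FPKM with JA/cytokinin against 20.8 FPKM with JA. EXPA4 (AT2G39700) had 78.1 FPKM with cytokinin against 33.1 FPKM in control, and 165 FPKM with JA/cytokinin against 61.1 FPKM with JA. Both were highest with both hormones. EXLA2 (AT4G38400), an expansin-like gene, had 26.4 FPKM with cytokinin against 11.6 FPKM in control, and 4.17 FPKM with JA/cytokinin against 0.960 FPKM with JA. It was far lower with JA/cytokinin than with cytokinin, unlike EXPB3 and EXPA4. Xyloglucan endotransglucosylases cut and rejoin xyloglucan. XTH19 (AT4G30290) had 187 FPKM with cytokinin against 80.8 FPKM in control, and 80.7 FPKM with JA/cytokinin against 21.7 FPKM with JA. XTH20 (AT5G48070) had 29.9 FPKM with cytokinin against 13.7 FPKM in control, and 64.6 FPKM with JA/cytokinin against 17.36 FPKM with JA. The first was highest with cytokinin alone and the second with both hormones. XTH33 (AT1G10550, 25.2 with cytokinin, 9.32 in control, 3.02 with JA/cytokinin and 0.418 FPKM with JA) was also far lower with JA and below control with both hormones. The endoglucanases GH9B8 (AT2G32990, 20.6 with cytokinin, 7.67 in control, 50.1 with JA/cytokinin and 12.7 FPKM with JA) and GH9C2 (AT1G64390, 71.0 with cytokinin, 33.3 in control, 102 with JA/cytokinin and 30.3 FPKM with JA) were highest with both. AT5G14650, of the pectin lyase-like family of polygalacturonases, had 0.885 FPKM with cytokinin against 0.238 FPKM in control, and 54.7 FPKM with JA/cytokinin against 1.92 FPKM with JA, so that it was far higher in the JA/cytokinin library than in the others. It overlaps another locus. None of the 39 pectin methylesterases and inhibitors and none of the 44 arabinogalactan proteins that reached 5 FPKM was in the set.

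Laccases and peroxidases oxidise phenols in the wall, and dirigent proteins guide the coupling of the products. The 3 families counted here were added after values were seen. A narrower peroxidase family set first had 4 genes that reached 5 FPKM, 1 of them in the set. Of 11 laccases that reached 5 FPKM 3 were in the set, and LAC1 (AT1G18140) had 60.6 FPKM with cytokinin against 18.3 FPKM in control, and 29.3 FPKM with JA/cytokinin against 10.3 FPKM with JA. LAC5 (AT2G40370, 15.3 with cytokinin, 6.34 in control, 5.502 with JA/cytokinin and 1.73 FPKM with JA) and LAC16 (AT5G58910, 7.82 with cytokinin, 3.20 in control, 2.99 with JA/cytokinin and 0.358 FPKM with JA) were lower in level and, with both hormones, below control. Of 55 peroxidases 4 were in the set, of which AT2G38390 (91.8 with cytokinin, 35.8 in control, 206 with JA/cytokinin and 52.4 FPKM with JA) was highest with both hormones and AT3G49960 (206 with cytokinin, 95.5 in control, 89.2 with JA/cytokinin and 30.7 FPKM with JA) with cytokinin alone. Of 17 dirigent-like genes 3 were in the set. AT4G11190 had 651 FPKM with cytokinin against 188 FPKM in control, and 397 FPKM with JA/cytokinin against 54.6 FPKM with JA. Its neighbour AT4G11210 had 281 FPKM with cytokinin against 102 FPKM in control, and 210.3 FPKM with JA/cytokinin against 64.5 FPKM with JA. Both neighbours were highest with cytokinin alone and lowest with JA.

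Enzyme families were counted by product name. The set held 6 of 32 HXXXD-type acyltransferases (18.8%), 6 of 32 polyketide cyclase and MLP proteins (18.8%), 4 of 14 strictosidine synthase-like proteins (28.6%), 9 of 97 cytochrome P450 enzymes (9.28%), 7 of 219 methyltransferases (3.20%), 1 of 37 glutathione transferases (2.70%) and 1 of 64 2-oxoglutarate oxygenases (1.56%), beside 1.74% of all genes that reached 5 FPKM. No share was tested, and the acyltransferase, polyketide cyclase and strictosidine synthase families were added after values were seen. AT2G25150, an acyltransferase, had 194 FPKM with cytokinin against 45.1 FPKM in control, and 199 FPKM with JA/cytokinin against 22.1 FPKM with JA. The P450 CYP82F1 (AT2G25160) beside it had 214 FPKM with cytokinin against 78.2 FPKM in control, and 90.2 FPKM with JA/cytokinin against 20.8 FPKM with JA. Another acyltransferase, AT5G47980, had 276 FPKM with cytokinin against 80.7 FPKM in control, and 224 FPKM with JA/cytokinin against 60.3 FPKM with JA. The first was near equal under both cytokinin conditions, whereas CYP82F1 and AT5G47980 were highest with cytokinin alone. Of the polyketide cyclase-like genes AT1G14960 (598 with cytokinin, 177 in control, 535 with JA/cytokinin and 121 FPKM with JA) and AT4G23680 (159 with cytokinin, 39.0 in control, 133 with JA/cytokinin and 32.9 FPKM with JA) were also highest with cytokinin alone, and the folds of AT4G23680 were close in both backgrounds (4.07-fold without JA and 4.05-fold with JA). AT5G36150, named for a pentacyclic triterpene synthase, had 11.1 FPKM with cytokinin against 2.03 FPKM in control, and 3.61 FPKM with JA/cytokinin against 0.139 FPKM with JA.

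Sulfotransferases move sulfate onto small molecules. ST4B (AT1G13420) had 668 FPKM with cytokinin against 187 FPKM in control, and 467 FPKM with JA/cytokinin against 42.8 FPKM with JA, the largest level of the 3 in the set. The neighbours AT3G45070 (369 with cytokinin, 120.5 in control, 116 with JA/cytokinin and 14.8 FPKM with JA) and AT3G45080 (33.3 with cytokinin, 12.6 in control, 21.9 with JA/cytokinin and 5.58 FPKM with JA) were likewise highest with cytokinin and lowest with JA. Indole glucosinolates, defence compounds made from tryptophan, were represented by 4 genes of 18 in a list added after values were seen. MYB34 (AT5G60890), a transcription factor of the pathway, had 147 FPKM with cytokinin against 57.1 FPKM in control, and 261.3 FPKM with JA/cytokinin against 74.6 FPKM with JA. CYP79B2 (AT4G39950), which makes indole-3-acetaldoxime, had 106 FPKM with cytokinin against 43.6 FPKM in control, and 256 FPKM with JA/cytokinin against 89.1 FPKM with JA. The next gene on the chromosome, AKN2 (AT4G39940), an APS kinase that feeds sulfation, had 119 FPKM with cytokinin against 53.8 FPKM in control, and 266 FPKM with JA/cytokinin against 123 FPKM with JA. These 3 were highest with both hormones. CYP81F4, which oxidises the indole ring, had 1119.6 FPKM with cytokinin against 399.7 FPKM in control, and 828 FPKM with JA/cytokinin against 279 FPKM with JA, and was lower with JA than in control. It overlaps another locus.

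Members often stood side by side on the chromosomes. With up to 2 genes on each side examined, 41 of 285 members placed on TAIR10.1 (14.4%) had another member beside them, against 597 of the 16121 other placed genes of at least 5 FPKM (3.70%). They fell into 17 groups, 13 of them pairs. The count was not tested, and tandem copies can share reads. The largest was a run of 6 consecutive loci on chromosome 5, from 15131289 to 15167864 in TAIR10.1, 36576 bases in all. It held the methyltransferases AT5G37990 and AT5G38020, the zinc-binding dehydrogenases AT5G37980 and AT5G38000, the glycosyltransferase AT5G38010 and a non-coding RNA, AT5G38005. AT5G38020 had 342 FPKM with cytokinin against 95.4 FPKM in control, and 482 FPKM with JA/cytokinin against 79.6 FPKM with JA. AT5G37990 had 209 FPKM with cytokinin against 44.6 FPKM in control, and 99.1 FPKM with JA/cytokinin against 4.67 FPKM with JA. The first was highest with both hormones and within 2-fold of control with JA, and the second was highest with cytokinin and more than 2-fold lower with JA. AT5G38000 had 73.1 FPKM with cytokinin against 19.0 FPKM in control, and 91.3 FPKM with JA/cytokinin against 17.7 FPKM with JA. AT5G37980 was the lowest of the run, with 5.71 FPKM with cytokinin against 2.23 FPKM in control, and 2.45 FPKM with JA/cytokinin against 0.830 FPKM with JA. The folds of the 6 loci ran between 2.26 and 4.67 without JA and between 2.74 and 20.8 with JA. AT5G38010 (33.5 with cytokinin, 14.7 in control, 20.6 with JA/cytokinin and 5.16 FPKM with JA) and AT5G38005 (50.9 with cytokinin, 21.5 in control, 43.5 with JA/cytokinin and 11.1 FPKM with JA) lay between these extremes in level.

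**Figure D5:**
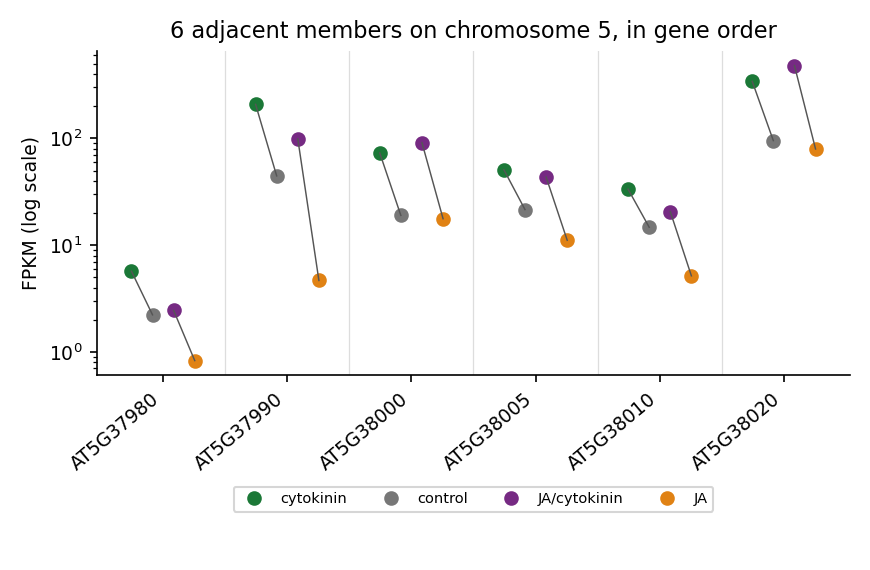
FPKM on a log axis of the 6 neighbouring loci AT5G37980 to AT5G38020 on chromosome 5, in chromosome order, in the cytokinin, control, JA/cytokinin and JA libraries, 1 point per library. In every locus both cytokinin points lie above their partners, and the JA point of AT5G37990 falls farthest below its control point.

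Other groups of 3 were the MATE carriers AT1G33080, AT1G33090 and AT1G33100, the strictosidine synthase-like genes SSL1 (AT2G41300) and SSL2 (AT2G41290) with the non-coding AT2G41312, and AT3G26445, AT3G26450 and AT3G26460. AT1G33100 had 21.8 FPKM with cytokinin against 6.74 FPKM in control, and 20.4 FPKM with JA/cytokinin against 4.15 FPKM with JA. AT1G33080 had 10.2 FPKM with cytokinin against 4.77 FPKM in control, and 20.7 FPKM with JA/cytokinin against 7.27 FPKM with JA. SSL1 had 37.7 FPKM with cytokinin against 11.3 FPKM in control, and 133 FPKM with JA/cytokinin against 31.2 FPKM with JA, highest with both hormones, as SSL2 was (31.4 with cytokinin, 13.4 in control, 46.7 with JA/cytokinin and 16.6 FPKM with JA). AT3G26460 (176 with cytokinin, 48.8 in control, 128 with JA/cytokinin and 9.71 FPKM with JA) was highest with cytokinin alone, and AT3G26445 (4.60 with cytokinin, 1.85 in control, 7.76 with JA/cytokinin and 3.78 FPKM with JA) with both, so that neighbours did not always share an order of levels.

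The set held 24 genes annotated or known as transcription factors, ASL9, MYB34 and MYB53 among them. They were put together after values were seen. Of the 24, 12 were at least 2-fold lower with JA than in control and 3 at least 2-fold higher, near the shares of the whole set (41.0% and 15.3%). Among all genes of at least 5 FPKM the shares lower and higher were 8.32% and 7.39%. The share of transcription factors among all genes was not computed. WOX4 (AT1G46480), a homeobox factor that maintains the vascular cambium, had 4.38 FPKM with cytokinin against 2.02 FPKM in control, and 13.2 FPKM with JA/cytokinin against 2.89 FPKM with JA (2.12-fold without JA and 4.47-fold with JA). AT1G64625, a bHLH-like gene of the LONESOME HIGHWAY family of vascular regulators, had 1.72 FPKM with cytokinin against 0.542 FPKM in control, and 6.55 FPKM with JA/cytokinin against 0.581 FPKM with JA. CLE42 (AT2G34925), which encodes a CLE signalling peptide, was also in the set (6.81 with cytokinin, 2.14 in control, 10.6 with JA/cytokinin and 2.56 FPKM with JA). All 3 were highest with both hormones. AT5G51790 had 23.0 FPKM with cytokinin against 8.94 FPKM in control, and 25.5 FPKM with JA/cytokinin against 2.14 FPKM with JA. AT4G25410 had 44.2 FPKM with cytokinin against 14.8 FPKM in control, and 27.2 FPKM with JA/cytokinin against 4.14 FPKM with JA. Both are bHLH factors and were lowest with JA, and AT5G51790 overlaps another locus. Another bHLH factor, AT2G40200, was higher with either hormone alone, with 6.92 FPKM with cytokinin against 1.75 FPKM in control, and 27.9 FPKM with JA/cytokinin against 8.95 FPKM with JA. Of 44 WRKY factors 3 were in the set, WRKY24 (AT5G41570), WRKY43 (AT2G46130) and WRKY56 (AT1G64000). WRKY43 had 6.63 FPKM with cytokinin against 1.95 FPKM in control, and 6.19 FPKM with JA/cytokinin against 0.356 FPKM with JA. NAC042 (AT2G43000) had 5.85 FPKM with cytokinin against 1.29 FPKM in control, and 7.25 FPKM with JA/cytokinin against 1.55 FPKM with JA, with like folds in both backgrounds (4.28-fold without JA and 4.45-fold with JA), and overlaps another locus. AT1G68360, a C2H2 zinc finger gene, had 9.52 FPKM with cytokinin against 3.64 FPKM in control, and 19.9 FPKM with JA/cytokinin against 1.43 FPKM with JA. It was lower with JA than in control and higher with JA/cytokinin than with cytokinin. None of 10 LBD factors by product name, 13 MADS-box factors or 25 AP2/ERF factors by product name was in the set. ASL9 and ERF14 carry other product names.

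A group of 7 genes of auxin, ethylene and gibberellin was put together after values were seen. How many such genes there were among all genes was not counted. YUCCA enzymes make auxin from indole-3-pyruvate, and 2 of the 5 that reached 5 FPKM were in the set, on a list added after values were seen. YUC9 (AT1G04180) had 6.79 FPKM with cytokinin against 2.66 FPKM in control, and 20.004 FPKM with JA/cytokinin against 6.86 FPKM with JA. YUC5 (AT5G43890) had 3.36 FPKM with cytokinin against 1.23 FPKM in control, and 12.2 FPKM with JA/cytokinin against 3.54 FPKM with JA. In both, JA alone and cytokinin alone gave similar levels and the combination a higher one. The auxin-inducible Aux/IAA repressors in the set were lower with JA than in control. IAA5 (AT1G15580) had 5.56 FPKM with cytokinin against 0.763 FPKM in control, and 3.10 FPKM with JA/cytokinin against 0.271 FPKM with JA. IAA19 (AT3G15540) had 18.3 FPKM with cytokinin against 6.54 FPKM in control, and 6.95 FPKM with JA/cytokinin against 3.23 FPKM with JA. IAA5 overlaps another locus. AT1G23160, of the GH3 family, whose members conjugate hormones to amino acids, had 10.6 FPKM with cytokinin against 3.45 FPKM in control, and 7.47 FPKM with JA/cytokinin against 0.267 FPKM with JA. ACS11 (AT4G08040), an enzyme of ethylene synthesis, had 17.9 FPKM with cytokinin against 5.55 FPKM in control, and 5.66 FPKM with JA/cytokinin against 1.62 FPKM with JA, at about its control level with both hormones. GA2OX2 (AT1G30040), which inactivates gibberellins, had 5.57 FPKM with cytokinin against 1.60 FPKM in control, and 18.1 FPKM with JA/cytokinin against 7.10 FPKM with JA, and was higher with either hormone.

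Of 18 transporter genes, a group put together by product name after values were seen, 12 lay within 2-fold of control with JA, 5 were lower and 1 was higher. In the whole set 41.0% were at least 2-fold lower and 15.3% at least 2-fold higher. Among all genes of at least 5 FPKM these shares were 8.32% and 7.39%. UMAMIT14 (AT2G39510), an exporter of amino acids in the root stele, had 28.3 FPKM with cytokinin against 11.0 FPKM in control, and 16.8 FPKM with JA/cytokinin against 0.626 FPKM with JA (2.56-fold without JA and 23.3-fold with JA). UMAMIT29 (AT4G01430, 11.9 with cytokinin, 3.50 in control, 12.3 with JA/cytokinin and 2.28 FPKM with JA) and UMAMIT10 (AT3G56620, 9.57 with cytokinin, 3.67 in control, 9.77 with JA/cytokinin and 3.61 FPKM with JA) were nearly equal under both cytokinin conditions. SLAH2 (AT4G27970), an anion channel of the root stele, had 23.7 FPKM with cytokinin against 10.2 FPKM in control, and 32.6 FPKM with JA/cytokinin against 6.38 FPKM with JA. PIP2;5 (AT3G54820), an aquaporin, was the transporter higher with JA, with 6.68 FPKM with cytokinin against 2.73 FPKM in control, and 43.5 FPKM with JA/cytokinin against 18.9 FPKM with JA. AT3G45680, of the major facilitator superfamily, had 30.2 FPKM with cytokinin against 8.24 FPKM in control, and 7.90 FPKM with JA/cytokinin against 0.359 FPKM with JA (3.63-fold without JA and 17.42-fold with JA).

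FSD1 (AT4G25100), an iron superoxide dismutase that plants use when copper is short, had 652 FPKM with cytokinin against 182 FPKM in control, and 552 FPKM with JA/cytokinin against 41.1 FPKM with JA (3.59-fold without JA and 13.4-fold with JA). The precursor of miR408, an RNA known to rise on low copper and to target transcripts of copper proteins, was the other member among 9 copper-deficiency genes, a list added after values were seen. The 9 genes did not move together. Their median log2 ratio for cytokinin was -0.15 without JA and -0.05 with JA, and 4 of the 9 were higher with cytokinin in each background. MIR408 (AT2G47015) had 4.72 FPKM with cytokinin against 1.18 FPKM in control, and 8.11 FPKM with JA/cytokinin against 1.26 FPKM with JA, but these rest on few fragments, 3.0 in the lowest library by estimate, and the locus overlaps AT2G47020. CSD1, a copper/zinc superoxide dismutase, had 290.4 FPKM with cytokinin against 620 in control, and 341 with JA/cytokinin against 699 with JA. It was outside the set, as was COPT2, a copper carrier on the same list, at 22.5 against 72.8 and 7.11 against 52.6 in the same order. Both mature arms are given with bases 2 to 8, the seed, in capitals, from the TAIR10.1 genome and annotation of RefSeq, on the plus strand of chromosome 2.
ath-miR408-5p (chr2:19319866-19319886): aCAGGGAAcaagcagagcaug
ath-miR408-3p (chr2:19319933-19319953): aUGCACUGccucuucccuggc

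Genes of carbon, nitrogen and stress metabolism were also in the set, named here after their values were seen. RNS1 (AT2G02990), a ribonuclease of phosphate starvation and wounding, had 14.8 FPKM with cytokinin against 3.28 FPKM in control, and 28.0 FPKM with JA/cytokinin against 1.26 FPKM with JA. TPPJ (AT5G65140), a trehalose-6-phosphate phosphatase, had 13.5 FPKM with cytokinin against 4.18 FPKM in control, and 54.5 FPKM with JA/cytokinin against 8.43 FPKM with JA. SUS4 (AT3G43190), a sucrose synthase, had 4.10 FPKM with cytokinin against 1.73 FPKM in control, and 5.97 FPKM with JA/cytokinin against 2.34 FPKM with JA. All 3 were highest with both hormones. GolS3 (AT1G09350), a galactinol synthase, had 16.7 FPKM with cytokinin against 4.07 FPKM in control, and 1.92 FPKM with JA/cytokinin against 0.277 FPKM with JA. Of the heat shock proteins, the small chaperone AT2G29500 had 126 FPKM with cytokinin against 39.7 FPKM in control, and 309.5 FPKM with JA/cytokinin against 35.8 FPKM with JA, and HSP18.2 (AT5G59720) had 7.18 FPKM with cytokinin against 3.29 FPKM in control, and 11.9 FPKM with JA/cytokinin against 1.91 FPKM with JA. Both chaperones were highest with both hormones. AT1G14120, a 2-oxoglutarate-dependent oxygenase, had 104 FPKM with cytokinin against 23.0 FPKM in control, and 451 FPKM with JA/cytokinin against 96.7 FPKM with JA. JAL22 (AT2G39310), a jacalin-type lectin, had 249 FPKM with cytokinin against 76.9 FPKM in control, and 591 FPKM with JA/cytokinin against 202 FPKM with JA. In both genes JA alone and cytokinin alone were each above control. UGT84A1 (AT4G15480), a glucosyltransferase of phenolic acids, and 4CL3 (AT1G65060), a coumarate CoA ligase of the flavonoid branch, were low under both JA conditions. UGT84A1 had 33.4 FPKM with cytokinin against 14.1 FPKM in control, and 2.21 FPKM with JA/cytokinin against 0.812 FPKM with JA. 4CL3 had 60.6 FPKM with cytokinin against 27.0 FPKM in control, and 13.6 FPKM with JA/cytokinin against 6.21 FPKM with JA.

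Some members rest on little. Of the 288, 282 had an exon length from which fragments could be estimated, and 251 had at least 20 fragments in every library. The exact Poisson 95% intervals, which cover counting error only, were apart in both cytokinin pairs for 281 of 282, the exception being MIR408. These intervals come from the same values that the rule required to differ, so their separation is no independent support. In 5 genes a library was listed at 0, and no fold is given. AT4G09731 had 8.74 FPKM with cytokinin against 0 FPKM in control, and 3.29 FPKM with JA/cytokinin against 0 FPKM with JA. ERF14, an ethylene response factor, had 2.70 FPKM with cytokinin against 0 FPKM in control, and 5.59 FPKM with JA/cytokinin against 0.703 FPKM with JA. SNOR105, a small nucleolar RNA of a class that is short and mostly not polyadenylated, had 77.0 FPKM with cytokinin against 0 FPKM in control, and 478 FPKM with JA/cytokinin against 186 FPKM with JA. AT3G60318 had 3.10 FPKM with cytokinin against 0 FPKM in control, and 9.43 FPKM with JA/cytokinin against 2.68 FPKM with JA. BNQ3, a helix-loop-helix protein, had 17.45 FPKM with cytokinin against 8.49 FPKM in control, and 2.47 FPKM with JA/cytokinin against 0 FPKM with JA. AT2G18590 (1.28 with cytokinin, 0.271 in control, 5.76 with JA/cytokinin and 0.0323 FPKM with JA), AT1G78990 (7.11 with cytokinin, 3.35 in control, 0.609 with JA/cytokinin and 0.0174 FPKM with JA) and AT1G76210 (5.21 with cytokinin, 2.31 in control, 0.570 with JA/cytokinin and 0.0726 FPKM with JA) had 3 or fewer estimated fragments with JA. Of the 288, 45 (15.6%) overlap another annotated locus, beside 32.1% of all genes that reached 5 FPKM, and their reads may be shared with it. By annotation 279 of the 288 were protein coding, 20 had an uncharacterised product, and 24.6% had a single exon, beside 14.4% of all genes that reached 5 FPKM.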

How the data were processed

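The authors made polyA-selected TruSeq libraries, sequenced them from both ends at 100 nt, and deposited 1 FPKM value per gene and library, calculated with Cufflinks. TAIR10 and Bowtie are named in the submitters' processing notes, and versions and strand handling are not given in the sources used here. The authors also deposited a count of reads sequenced per library. Columns were matched to the 4 conditions by name, with 1 library per condition, so nothing was averaged or tested.

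Ratios of FPKM plus 0.1 were formed over the 16525 genes of at least 5 FPKM. Fragments per gene were estimated from steps in low FPKM, with a fragment length of 160 and 85.8 to 90.8% of pairs mapped. In 61.1 to 61.8% of cases a low value, at most 5 fragments, came within 0.1 of a whole fragment, so these counts are approximate. Gene names, exons and promoters came from TAIR10.1 of RefSeq, which held 28907 of the 33565 loci. The TAIR10.1 chromosomes carry the coordinates printed.

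The members and lists were chosen with earlier results of these data known. 17 lists and 40 families were set first, and 5 lists, 10 families and the groups by role were added after values were seen. Of the listed CC-type glutaredoxins 1 of 21 had a match, so that list is void, and the family by product name had 0 of 16 in the set. Named were the 10 genes of largest mean ratio, the 5 of highest FPKM, the 5 at either end of the JA ratio and of the difference between both cytokinin ratios, list members, up to 4 per family and the 3 nearest the threshold on each side. Genes outside this rule were singled out after their values were seen.

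Alternatives were no pseudocount or 1 FPKM, minima of 0, 1 or 10 FPKM, rescaling by the median or a trimmed mean of ratios to control, and folds of 1.5 or 3. Leaving out overlapping genes or genes under 20 fragments was chosen after seeing the data. The software was scipy 1.17.1, pandas 2.3.3 and numpy 2.4.6 under Python 3.11.15, with matplotlib 3.10.9 for plots, and the steps were tested on simulated data.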

Additional observations from a re-analysis of the deposited data

Results flagged for a closer look

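In 3 genes of the set JA went one way without cytokinin and the other way with it, at least 2-fold each time, and no gene of the set did the reverse. For AT2G18590, a major facilitator, the log2 ratio of JA/cytokinin to cytokinin was 2.09 and that of JA to control was -1.49, a difference of 3.57. For AT5G28145.1 they were 1.58 and -1.52, a difference of 3.11. For AT1G68360, a C2H2 zinc finger gene, they were 1.06 and -1.29, a difference of 2.34. Each difference equals that between the cytokinin log2 ratios with and without JA, on which the rule selected. Nothing is therefore read from the absence of the reverse, and the share among all genes of at least 5 FPKM was not computed. With 1 library per condition these differences were not tested, and AT2G18590 had 2.0 estimated fragments with JA.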

How the results depend on the processing

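Of 77 values recomputed under alternative settings, 20 moved. A reversal was counted only between median log2 ratios that were both at least 1 in size. None could occur, since the rule holds the cytokinin medians above 0, the main JA medians were under 1 in size and counts have no sign. The settings that moved the 20 values were the pseudocount, the FPKM minimum and the fold, each of which changes which genes are taken. A pseudocount of 1 left 214 genes, all within the 288, with median log2 ratios of 1.28 without JA and 1.78 with JA, 73 genes at least 2-fold lower with JA than in control and 42 at least 2-fold lower with JA/cytokinin than with cytokinin. Without a minimum there were 518 genes, a median of 1.81 with JA, and 181 and 114 genes lower. A minimum of 1 FPKM gave 102 in the last count. A fold of 1.5 gave 806 genes, medians of 0.95 and 1.28, and 261 and 162 genes lower. A fold of 3 gave 62 genes, medians of 1.88 and 2.91, a median of 0.26 for JA/cytokinin over cytokinin, and 26 and 15 genes lower. Rescaling left 251 genes, all within the 288. The median of JA/cytokinin over cytokinin lay near 0, at 0.06, and was negative without a minimum (-0.02), at a fold of 1.5 (-0.04) and without overlapping genes (-0.05), the last chosen after seeing the data. No paired analysis was possible because there was a single library under each condition, and leaving out a library was likewise not possible. Genes of few fragments limit the lowest values.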
